A study of Homo sapiens with 4 samples.

Results

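The Hedgehog pathway genes described here are 6: the transcription factors GLI1, GLI2 and GLI3, the receptor gene PTCH1, the signal transducer SMO and the GLI inhibitor SUFU. They were chosen by name and found by gene ID, 1 row each, among the 60614 genes counted. All 6 passed the filter on low counts. RNA came from DU145, a long-established cell line of human prostate cancer, in 2 libraries of the genotype SPOP-F133V and 2 of the wild-type genotype. F133V is a substitution in the substrate-binding domain of SPOP, the adaptor that brings proteins to a CUL3 ubiquitin ligase. Whether the F133V line is 1 clone, a pool or cells given extra SPOP is not said in the labels. Nor do the labels say whether the wild-type cells are the unmodified line or were given extra SPOP too. They also leave unsaid if replicates were separate cultures, and p-values therefore rest on a spread between libraries that may be technical.

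In the Hedgehog pathway a secreted ligand binds the receptor PTCH1, which otherwise holds the membrane protein SMO inactive. Active SMO frees the GLI factors from SUFU, so that GLI2 and GLI3 act as activators in place of being cut into repressors. GLI1 and PTCH1 are themselves transcribed in response, which makes their mRNA the usual readout of the pathway. SPOP is known to bind full-length GLI2 and GLI3 proteins and to promote their degradation, so the pathway is one in which a SPOP substrate-binding mutation is of interest. That step acts on protein, which RNA-seq does not measure.

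Among the starts of the core genes in RefSeq (GRCh38.p14), 1 held the consensus letters bound by GLI factors. The search covered 300 bases per start, 250 before and 50 after, for GACCACCCA on either strand (TGGGTGGTC on the other). It was met in 83 of 35116 such windows in all, or 0.236%. PTCH1, GLI2, SMO and SUFU had windows in that table, and of the 5 starts of PTCH1 a single one held the letters, on the opposite strand. The 250 bases before that start are shown, with the match in capitals, because PTCH1 is a core gene whose transcription is used as the readout. Beside them are those of SMO, a core gene with no match in its window. The PTCH1 stretch is chr9:95509267-95509516 on the minus strand and the SMO stretch is chr7:129188383-129188632 on the plus strand, both written 5′ to 3′.
PTCH1: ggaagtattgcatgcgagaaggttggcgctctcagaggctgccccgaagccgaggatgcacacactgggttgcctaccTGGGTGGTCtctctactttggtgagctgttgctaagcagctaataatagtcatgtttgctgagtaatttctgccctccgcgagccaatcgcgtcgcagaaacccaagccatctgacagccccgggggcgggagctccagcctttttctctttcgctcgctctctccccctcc
SMO: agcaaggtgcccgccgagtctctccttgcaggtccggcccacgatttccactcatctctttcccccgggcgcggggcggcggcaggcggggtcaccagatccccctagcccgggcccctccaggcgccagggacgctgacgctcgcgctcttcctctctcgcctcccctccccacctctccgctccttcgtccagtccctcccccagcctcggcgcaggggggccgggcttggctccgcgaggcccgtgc
A match of letters is a description of the sequence and does not show that a factor binds there.

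Reads counted in genes numbered 35173245 to 39642063 per library. Levels are given as CPM (counts after TMM scaling of the libraries), and differences as log2 fold changes of F133V over wild-type. SPOP mRNA stood at 1171 and 1151 CPM in the F133V libraries, against 843.5 and 906 CPM in the wild-type libraries, and mutant and wild-type transcripts are counted together. In both genotypes that was far above CUL3, with means of 75.4 CPM in F133V and 113.5 CPM in wild-type libraries. Whether added SPOP contributes to the level in either genotype was not tested. Of 17539 genes tested, 54.8% were called at a Benjamini-Hochberg (BH) adjusted p under 0.05 (edgeR quasi-likelihood test), 27.2% as higher and 27.6% as lower in F133V. The difference between genotypes followed transcript GC content: its median ran from -0.68 in the lowest of 10 GC bins to 0.29 in the highest. The F133V replicates differed from each other along the same axis, from -0.19 to 0.16 (replicate 2 minus replicate 1), and the wild-type replicates by at most 0.023. Each value is therefore followed by one adjusted for GC content and length, called GC-adjusted. In that fit 52.2% of 17299 genes were called, 27.6% as higher and 24.5% as lower. The adjustment would also remove a real difference that follows GC content. Epithelial markers (EPCAM, CDH1 and 3 keratins) summed to 2242 and 2440 CPM in the F133V libraries and 1835 and 1833 CPM in the wild-type libraries. The 7 fibroblast markers summed to 9.67 and 10.3 CPM in the F133V libraries and 7.57 and 8.07 CPM in the wild-type libraries, with LUM and DCN at 0 in every library. The 4 endothelial markers summed to at most 1.1 CPM and the 5 blood markers to at most 0.357 CPM in any library.

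Without GC adjustment, SMO and SUFU mRNA rose in F133V cells. GLI2 and GLI3 mRNA did not pass the test, and neither did the readout genes GLI1 and PTCH1. Of the 6 genes 2 were called higher and 0 lower by edgeR, beside the 27.2% and 27.6% of all tested genes. The same counts of 2 and 0 came from DESeq2, which called 2954 of 17164 genes higher and 4001 lower. At an unadjusted p under 0.05, edgeR had 3 of the 6 higher and 0 lower, and DESeq2 had 2 higher and 0 lower. The share of all genes at that threshold was not counted. Their median log2 fold change was 0.21, against 0.022 over all genes. GC-adjusted, 2 were called higher (SMO and PTCH1), 1 lower (GLI2) and 3 were not called. Over all genes in that fit 27.6% were called higher and 24.5% lower. The GC-adjusted median of the 6 was 0.11, beside 0.018 over all genes. SMO is the only one of the 6 called in both fits.

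**Figure D1:**
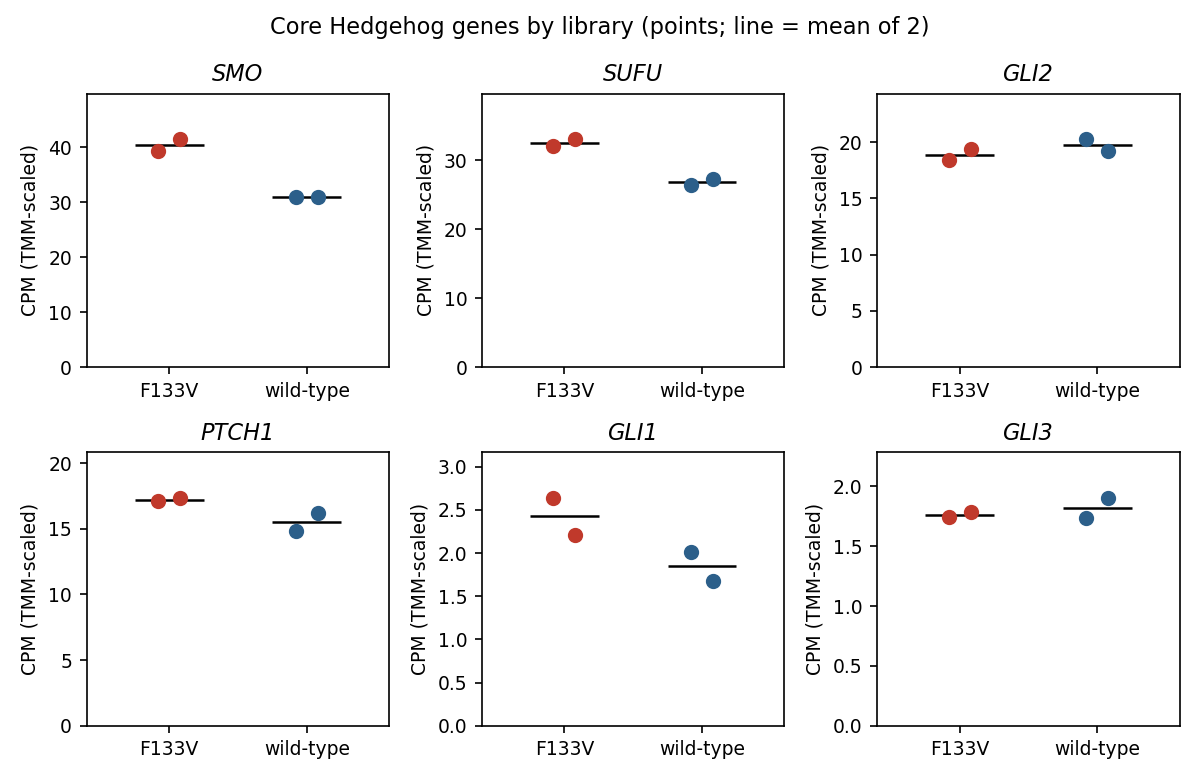
CPM (TMM-scaled, axes from 0) of each core Hedgehog gene in each library, F133V left and wild-type right; points are libraries and lines the mean of 2. The genotypes separate for SMO, SUFU, PTCH1 and GLI1 and overlap for GLI2 and GLI3. How many of all tested genes separate in this way was not counted. With 2 libraries against 2, an exact permutation test of such separation cannot go below p = 0.333.

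SMO (ENSG00000128602.11, chromosome 7, 129188872 to 129213545, plus strand of GRCh38 in GENCODE release 29) encodes the transmembrane protein that carries the signal across the ciliary membrane. Its level was 39.3 and 41.5 CPM in the F133V libraries, against 31.0 and 31.1 CPM in the wild-type libraries. Both F133V libraries lay above both wild-type libraries, with means ± SD (n = 2) of 40.4 ± 1.56 CPM for F133V and 31.0 ± 0.0363 CPM for wild-type. The log2 fold change was 0.38 ± 0.073 (SE; edgeR BH-adjusted p = 1.83e-04), and GC-adjusted 0.13 ± 0.05 (edgeR BH-adjusted p = 0.0340). SMO transcripts are 61.4% GC, and 574 expressed genes within 1 percentage point of that had a median of 0.26, 61.0% of them called higher. Without F133V replicate 1 the GC-adjusted value was 0.064 and missed (edgeR BH-adjusted p = 0.359); it also missed with wild-type replicate 1 or 2 left out (0.13 and 0.12, adjusted p = 0.162 and 0.172). An antisense gene shares 2.99% of the SMO exons, and the strand setting of the counting was not given in the sources used here.

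SUFU (ENSG00000107882.12, chromosome 10, 102503987 to 102633535, plus strand) encodes the cytosolic protein that binds GLI factors and holds them out of the nucleus. It had 32.1 and 33.1 CPM in F133V libraries and 26.5 and 27.3 CPM in wild-type libraries. The groups did not overlap, and the genotype means ± SD (n = 2) were 32.6 ± 0.711 CPM for F133V and 26.9 ± 0.589 CPM for wild-type. SUFU rose by a log2 fold change of 0.28 ± 0.075 (SE; edgeR BH-adjusted p = 0.00393). GC-adjusted, the value was 0.085 ± 0.053 and missed the threshold (edgeR BH-adjusted p = 0.184). Genes of like GC content (56.6%, 666 genes) had a median of 0.20, and 54.0% of them were called higher. Leaving out wild-type replicate 1 or 2 ended the unadjusted SUFU call (0.25 and 0.29, edgeR BH-adjusted p = 0.168 and 0.0998).

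GLI2 (ENSG00000074047.22, chromosome 2, 120735623 to 120992653, plus strand) is the main activator of the GLI family and a SPOP-bound protein. Its levels were 18.4 and 19.4 CPM in F133V libraries and 20.3 and 19.2 CPM in wild-type libraries, so the groups overlapped. The log2 fold change was -0.063 ± 0.082 (SE; edgeR BH-adjusted p = 0.539), with a 95% interval from -0.24 to 0.11. GLI2 transcripts are 60.8% GC, and the 657 expressed genes of like GC content had a median of 0.26, with 62.1% called higher and 2.89% called lower. GC-adjusted, GLI2 fell by 0.26 ± 0.063 (edgeR BH-adjusted p = 5.8e-04). That call was kept whichever of the 4 libraries was left out, at values between -0.32 and -0.22, the largest edgeR BH-adjusted p being 0.0310. With upper-quartile scaling, which moved the median over all genes from 0.022 to 0.13, the unadjusted value was 0.047 (edgeR BH-adjusted p = 0.644). The direction of GLI2 without GC adjustment thus turned with the scaling.

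GLI3 (ENSG00000106571.15, chromosome 7, 41960950 to 42237870, minus strand) encodes a protein that, once cut, is the main repressor of the family. Its mRNA does not tell the cut form from the full-length one. It had few reads, at 1.74 and 1.78 CPM in F133V libraries and 1.73 and 1.91 CPM in wild-type libraries. These are 64 and 63 reads in F133V cells and 68 and 68 reads in wild-type cells. The groups overlapped, with a log2 fold change of -0.041 ± 0.18 (SE; edgeR BH-adjusted p = 0.867), GC-adjusted -0.041 ± 0.19 (adjusted p = 0.874). The 95% interval ran from -0.42 to 0.34, so values in that range remain compatible with these reads. The sign was positive with upper-quartile scaling (0.069) and without wild-type replicate 2 (0.021).

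GLI1 (ENSG00000111087.10, chromosome 12, 57460135 to 57472262, plus strand) is the activator whose own transcription follows pathway activity. It had 97 and 78 reads in F133V replicates 1 and 2, and 79 and 60 reads in wild-type replicates 1 and 2. Scaled, that was 2.64 and 2.21 CPM in F133V libraries and 2.01 and 1.68 CPM in wild-type libraries, without overlap, but the spread within each genotype was large beside the gap between them. The genotype means ± SD (n = 2) were 2.43 ± 0.306 CPM for F133V and 1.85 ± 0.234 CPM for wild-type. The log2 fold change of 0.39 ± 0.18 (SE) did not pass (edgeR BH-adjusted p = 0.0716, unadjusted p = 0.0413), and GC-adjusted it was 0.15 ± 0.18 (edgeR BH-adjusted p = 0.499). GLI1 passed without F133V replicate 2 (0.51, edgeR BH-adjusted p = 0.0244). Its GC-adjusted value was -0.073 without F133V replicate 1 (edgeR BH-adjusted p = 0.811), so 1 library decided its sign. The 712 genes of like GC content (58.6%) had a median of 0.21.

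PTCH1 (ENSG00000185920.16, chromosome 9, 95442980 to 95517057, minus strand), the ligand receptor shown above by sequence, had 17.1 and 17.4 CPM in F133V libraries and 14.8 and 16.2 CPM in wild-type libraries. Both F133V values lay above both wild-type values, though the gap between the 2 wild-type libraries was wider than the gap between the genotypes. The genotype means ± SD (n = 2) were 17.2 ± 0.204 CPM for F133V and 15.5 ± 0.933 CPM for wild-type. The log2 fold change was 0.15 ± 0.086 (SE; edgeR BH-adjusted p = 0.143), with a 95% interval from -0.027 to 0.33. GC-adjusted, PTCH1 rose by 0.23 ± 0.069 (edgeR BH-adjusted p = 0.00471). At 48.7% GC its transcripts are the poorest in GC of the 6, and 750 genes of like content had a median of 0.015. The adjusted PTCH1 call was lost with wild-type replicate 1 left out (0.17, edgeR BH-adjusted p = 0.123) and with an offset on GC content alone, without length (0.13, adjusted p = 0.107). An antisense gene shares 4.29% of the PTCH1 exons.

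**Figure D2:**
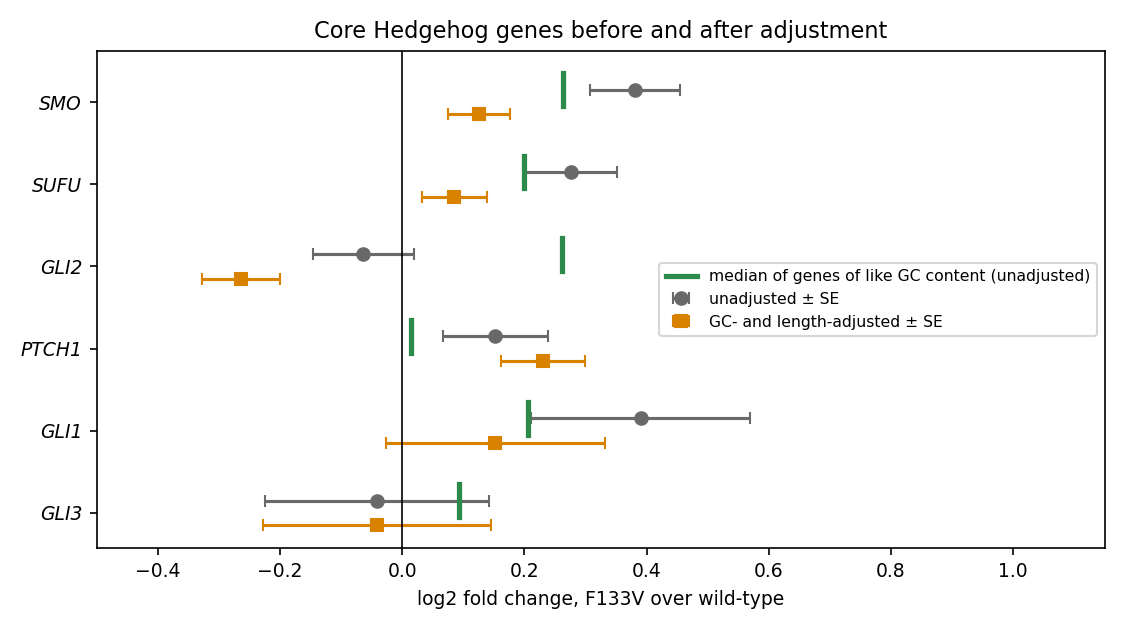
Log2 fold change of F133V over wild-type for each core gene, unadjusted (grey circles) and adjusted for GC content and length (orange squares), with bars of 1 SE; green ticks give the unadjusted median of expressed genes within 1 percentage point of GC content. Unadjusted, GLI2 and GLI3 lie left of their ticks and SMO, SUFU, PTCH1 and GLI1 right of theirs. The adjusted values of SMO and SUFU are 0.13 and 0.085.

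Per kilobase of exon, the order of levels was the same in both genotypes. SMO stood at 9.37 CPM per kilobase in F133V cells and 7.20 in wild-type cells, and SUFU at 4.75 in F133V cells and 3.92 in wild-type cells. GLI2 followed with 2.58 CPM per kilobase in F133V cells and 2.69 in wild-type cells, and PTCH1 with 1.04 in F133V cells and 0.935 in wild-type cells. GLI1 had 0.577 CPM per kilobase in F133V cells and 0.439 in wild-type cells, and GLI3 0.161 in F133V cells and 0.166 in wild-type cells. No library of 1 gene overlapped the next gene in that order. GLI2 was thus the most abundant GLI mRNA of the line and GLI3 the least. The scale rests on all annotated exons of a gene, and PTCH1, with 27 annotated transcripts, has 16591 exon bases.

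Among the 4-library profiles, those nearest to SMO by Euclidean distance of centred log2 CPM were TMEM208 and CALCOCO1 (0.0118 and 0.0157), and those nearest to SUFU were FGFRL1 and RNF24 (0.00661 and 0.0102). PSMB8-AS1 and SLC16A10 lay nearest to GLI1, PCNX2 and TLCD3A to GLI2, CYP4F3 and HDAC2-AS2 to GLI3, and PPOX and TRIM35 to PTCH1. With 4 libraries such likeness is common: 975 of 5004 genes of like level lay within 0.2 of SMO and 78 of 2589 within 0.2 of GLI1.

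Upstream of the receptor, mRNA of the ligand SHH and of the SCUBE genes rose in F133V cells, at low counts. Of the 8 listed genes for ligands and their release 6 were tested. In edgeR 4 rose, 0 fell and 2 did not pass, beside 27.2% of all genes called higher and 27.6% lower. DESeq2 called 1 higher and 0 lower, where it called 2954 of 17164 genes higher and 4001 lower. At an unadjusted p under 0.05, edgeR had 4 higher and 0 lower, and DESeq2 had 3 higher and 0 lower. The share of all genes at that threshold was not counted. The median of the 6 was 0.87 (GC-adjusted 0.79), against 0.022 over all genes (GC-adjusted 0.018). GC-adjusted, 4 rose and 0 fell, beside 27.6% of all genes called higher and 24.5% lower. SHH, the ligand sonic hedgehog, had 49 and 57 reads in F133V replicates 1 and 2, and 24 and 30 reads in wild-type replicates 1 and 2. Both F133V libraries lay well above both wild-type ones, at 1.33 and 1.61 CPM in F133V cells against 0.611 and 0.841 CPM in wild-type cells. SHH rose by 1.03 ± 0.24 (log2 fold change ± SE, edgeR BH-adjusted p = 0.00138), GC-adjusted 0.88 (adjusted p = 0.00279). Leaving out wild-type replicate 1 ended the GC-adjusted SHH call (0.66, edgeR BH-adjusted p = 0.0832).

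The SCUBE genes encode secreted glycoproteins; SCUBE2 is known to help release lipid-modified SHH from the cells that make it. SCUBE1 had 37 and 36 reads in F133V libraries and 11 and 12 reads in wild-type libraries, and rose by 1.71 ± 0.31 (GC-adjusted 1.58). SCUBE2 had 34 and 36 reads in F133V libraries and 19 and 13 reads in wild-type libraries, and rose by 1.18 ± 0.29 (GC-adjusted 1.13). SCUBE3 had 49 and 41 reads in F133V libraries and 34 and 23 reads in wild-type libraries, and rose by 0.71 ± 0.25 (GC-adjusted 0.71). The groups did not overlap for any of the 3. How many of all tested genes separate in this way was not counted. The edgeR BH-adjusted p-values of SCUBE1, SCUBE2 and SCUBE3 were 8.32e-05, 0.00183 and 0.0190. SCUBE3 missed without F133V replicate 1 (0.58, edgeR BH-adjusted p = 0.106) and without wild-type replicate 2 (0.52, adjusted p = 0.203). By the DESeq2 Wald test only SCUBE1 of the 4 passed (BH-adjusted p = 0.0134), with SHH at 0.0660, SCUBE2 at 0.0873 and SCUBE3 at 0.243. Endothelial markers, also at low counts, summed to 0.817 and 1.1 CPM in the F133V libraries and 0.535 and 0.28 CPM in the wild-type libraries; their part in these values was not tested. In bulk RNA more cells making a transcript and more of it per cell cannot be told apart.

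HHAT, the acyltransferase that attaches palmitate to the ligand, had 12.9 and 12.9 CPM in F133V libraries and 11.3 and 12.3 CPM in wild-type libraries (log2 fold change 0.12, edgeR BH-adjusted p = 0.270). DISP1, the transporter that exports it, had 14.6 and 13.5 CPM in F133V libraries and 15.3 and 15.5 CPM in wild-type libraries (log2 fold change -0.13, edgeR BH-adjusted p = 0.220). Neither passed. The other 2 ligand genes were near 0: IHH had 0 and 0 reads in F133V libraries and 0 and 1 in wild-type libraries, and DHH 1 and 5 reads in F133V libraries and 2 and 5 in wild-type libraries. SHH was thus the only ligand mRNA above the filter.

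**Figure D3:**
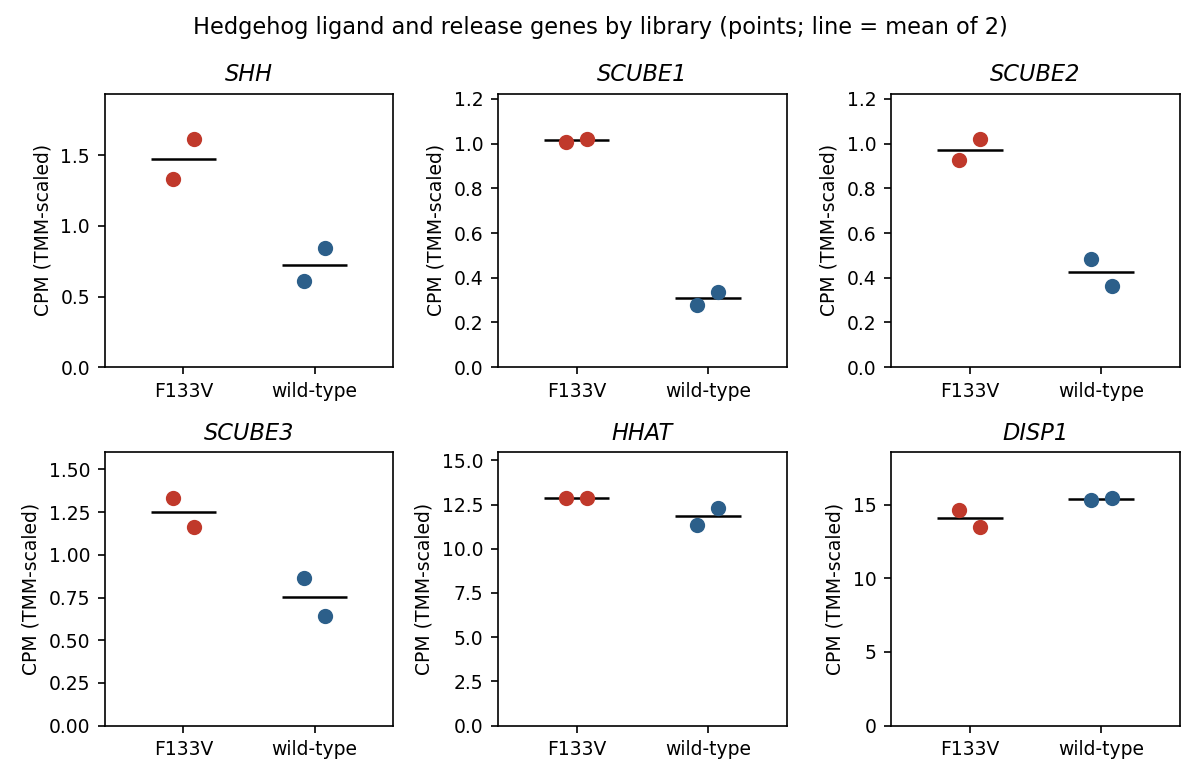
CPM (TMM-scaled, axes from 0) of SHH, the 3 SCUBE genes, HHAT and DISP1 in each library, F133V left and wild-type right; points are libraries and lines the mean of 2. SHH and the SCUBE genes separate the genotypes at levels under 2 CPM. HHAT and DISP1 separate them too, by small differences at 11.3 to 15.5 CPM.

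Receptors and co-receptors other than PTCH1 did not pass the test without GC adjustment. Of the 6 listed genes 3 were tested, and edgeR called 0 in either direction, beside 27.2% of all genes called higher and 27.6% lower. Their median was 0.038. At an unadjusted p under 0.05 edgeR had 1 higher, CDON, and 0 lower, and the share of all genes at that threshold was not counted. DESeq2 called 0. HHIP, the decoy receptor and a further readout gene, had 0 and 0 reads in F133V libraries and 2 and 2 reads in wild-type libraries, at or under 3 reads, below which no fold is given. GC-adjusted, 1 of the 3 tested genes was called higher and 0 lower, beside 27.6% and 24.5% of all genes in that fit. That gene, the ligand co-receptor CDON, rose by 0.33 (edgeR BH-adjusted p = 1.3e-05), beside 0.18 without the adjustment (adjusted p = 0.0626). CDON was named after its values were seen; it had 22.5 and 21.9 CPM in F133V libraries and 19.9 and 19.2 CPM in wild-type libraries.

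Of 21 genes reported as GLI targets 11 were tested: 4 rose, 2 fell and 5 did not pass, with a median of 0.092 (GC-adjusted 2 rose and 3 fell, median 0.066). Those counts stand beside shares of all genes called of 27.2% higher and 27.6% lower (GC-adjusted 27.6% and 24.5%). SFRP1, a secreted WNT inhibitor, had 48.5 and 51.0 CPM in F133V libraries and 28.9 and 30.5 CPM in wild-type libraries. It rose by 0.74 ± 0.074 (GC-adjusted 0.69, edgeR BH-adjusted p = 4.98e-08 and 5.29e-15). CCND1, cyclin D1, moved the other way, with 270 and 274 CPM in F133V libraries and 347 and 351 CPM in wild-type libraries. It fell by 0.36 ± 0.056 on the log2 scale (GC-adjusted -0.42, edgeR BH-adjusted p = 1.55e-05 and 5.84e-14). SNAI1, a repressor of epithelial genes, rose by 0.57 ± 0.11 (GC-adjusted 0.28, edgeR BH-adjusted p = 2.9e-04 and 0.0155). Its GC-adjusted call was lost without F133V replicate 1 (0.25, edgeR BH-adjusted p = 0.0526) or wild-type replicate 2 (0.15, adjusted p = 0.325). JAG2, a Notch ligand, rose by 0.31 ± 0.074 (edgeR BH-adjusted p = 0.00118), but GC-adjusted it was at 0.066 (adjusted p = 0.173), and without wild-type replicate 1 it was at 0.27 (adjusted p = 0.0919). Many of these targets are set by other pathways too. Among the 10 not tested, FOXF1, FOXC2, NKX2-2 and GREM1 had at most 1 read in any library.

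Genes for intraflagellar transport, which moves pathway proteins along the primary cilium, were more often lower than higher in F133V cells. Of 16 tested genes 1 rose, 11 fell and 4 did not pass, with a median of -0.33, beside 27.2% of all genes called higher and 27.6% lower. GC-adjusted, 2 rose and 8 fell, with a median of -0.15, beside 27.6% and 24.5%. Their median GC content was 40.4%. In the bin of 38.4% to 40.8% GC, expressed genes had an unadjusted median of -0.51, further below 0 than the -0.33 of the list. DYNC2H1, the heavy chain of the retrograde motor dynein-2, had 16.8 and 12.5 CPM in F133V libraries and 33.8 and 31.8 CPM in wild-type libraries. It fell by 1.16 ± 0.10 (GC-adjusted -0.49), and IFT80 fell by 1.14 ± 0.095 (GC-adjusted -0.51). IFT88, of the anterograde complex IFT-B, fell by 1.11 ± 0.11 (GC-adjusted -0.59), and WDR35, of the retrograde complex IFT-A, by 0.95 ± 0.078 (GC-adjusted -0.38). For DYNC2H1, IFT80, IFT88 and WDR35 the BH-adjusted p from edgeR was 4.94e-09 to 7.64e-08, and GC-adjusted 5.0e-08 to 3.7e-06.

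Of 13 tested genes listed as ciliary regulators of SMO and GPR161, 5 rose, 2 fell and 6 did not pass (median 0.054). Those counts stand beside 27.2% of all genes called higher and 27.6% lower. GC-adjusted, 2 rose and 2 fell (median -0.027), beside 27.6% and 24.5%. ARRB1, the beta-arrestin 1 gene, rose by 0.59 ± 0.078 (GC-adjusted 0.39, edgeR BH-adjusted p = 2.22e-06 and 5.89e-07). Its level was 30.3 and 29.7 CPM in F133V libraries and 20.4 and 19.5 CPM in wild-type libraries. ARRB2 and GRK2 were called higher (0.35 and 0.23, edgeR BH-adjusted p = 1.83e-04 and 0.00490), but not GC-adjusted (0.06 and -0.013). With wild-type replicate 1 or 2 left out, GRK2 missed (0.23 and 0.22, edgeR BH-adjusted p = 0.135 and 0.162).

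Of 13 genes listed as GLI kinases and scaffolds, 2 were called higher, 4 lower and 7 not (median 0.022). GC-adjusted, 2 were called higher and 2 lower (median 0.014). Over all genes the shares were 27.2% higher and 27.6% lower (GC-adjusted 27.6% and 24.5%). PRKACB, a catalytic subunit of protein kinase A, fell by 0.80 ± 0.087 (edgeR BH-adjusted p = 1.8e-07), GC-adjusted -0.19 (adjusted p = 0.0190). That adjusted call was lost without F133V replicate 1 (-0.18, edgeR BH-adjusted p = 0.0693) or wild-type replicate 2 (-0.17, adjusted p = 0.131). GSK3B and DYRK2 fell by 0.42 and 0.48 (edgeR BH-adjusted p = 2.08e-05 and 1.0e-05) and were at -0.0068 and 0.043 GC-adjusted, without passing. PRKAR1A, the regulatory subunit, fell by 0.37 ± 0.06 (edgeR BH-adjusted p = 2.95e-05) but rose by 0.17 GC-adjusted (adjusted p = 1.6e-04). The GC adjustment thus turned its direction.

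Of 11 genes for the turnover of GLI and SUFU proteins, 1 rose, 7 fell and 3 did not pass (median -0.23), beside 27.2% of all genes called higher and 27.6% lower. GC-adjusted 4 rose and 2 fell (median 0.10), near the shares of all genes in that fit, 27.6% and 24.5%. SPOP was the 1 that rose unadjusted, by 0.41 ± 0.055 (GC-adjusted 0.50, edgeR BH-adjusted p = 2.7e-06 and 1.63e-15). Its paralog SPOPL had 13.2 and 12.9 CPM in F133V libraries and 23.4 and 23.4 CPM in wild-type libraries. SPOPL fell by 0.84 ± 0.083 and CUL3, the scaffold of the ligase, by 0.59 ± 0.077 (edgeR BH-adjusted p = 5.1e-08 and 1.77e-06). GC-adjusted, SPOPL was at -0.13 (edgeR BH-adjusted p = 0.0936) and CUL3 at 0.066 (adjusted p = 0.168). The adjusted SPOPL value passed without F133V replicate 2 (-0.21, edgeR BH-adjusted p = 0.0193), and so did that of CUL3 (0.11, adjusted p = 0.0187). CUL1, the scaffold of the ligase that leads GLI proteins to partial cutting, fell in both fits, by 0.40 ± 0.066 (GC-adjusted -0.24, edgeR BH-adjusted p = 3.01e-05 and 1.61e-06).

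Of the zinc finger genes related to GLI, 6 of 8 were tested; 2 rose, 1 fell and 3 did not pass (median -0.03), beside the 27.2% of all genes called higher and 27.6% lower. GC-adjusted, edgeR called 0 of them, beside 27.6% of all genes called higher and 24.5% lower. At an unadjusted p under 0.05 that fit had 1 lower, GLIS3. DESeq2, without GC adjustment, called 1 higher, where it called 2954 of 17164 genes higher. Without GC adjustment ZIC2 was at 0.79 ± 0.29 and GLIS3 at -0.26 ± 0.097 (edgeR BH-adjusted p = 0.0247 and 0.0260). GC-adjusted they were at 0.54 and -0.18 (edgeR BH-adjusted p = 0.0954 and 0.074). Unadjusted, ZIC2 was at 0.31 without F133V replicate 2. GLIS2 was at 0.36 ± 0.084 (edgeR BH-adjusted p = 0.00109, GC-adjusted 0.09 with adjusted p = 0.247), and leaving out wild-type replicate 1 ended its unadjusted call (0.27, adjusted p = 0.138). Across the 8 lists 78 of 94 genes were tested: 19 were called higher and 27 lower, and GC-adjusted 17 higher and 17 lower. With upper-quartile scaling the balance turned, to 28 higher and 19 lower (GC-adjusted 37 and 9). Over all genes that scaling called 6462 higher and 3831 lower, where TMM scaling called 4763 and 4841 (GC-adjusted 6991 and 2400, where TMM scaling called 4779 and 4243). The median log2 fold change over the 78 was -0.04 (GC-adjusted 0.015).

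**Figure D4:**
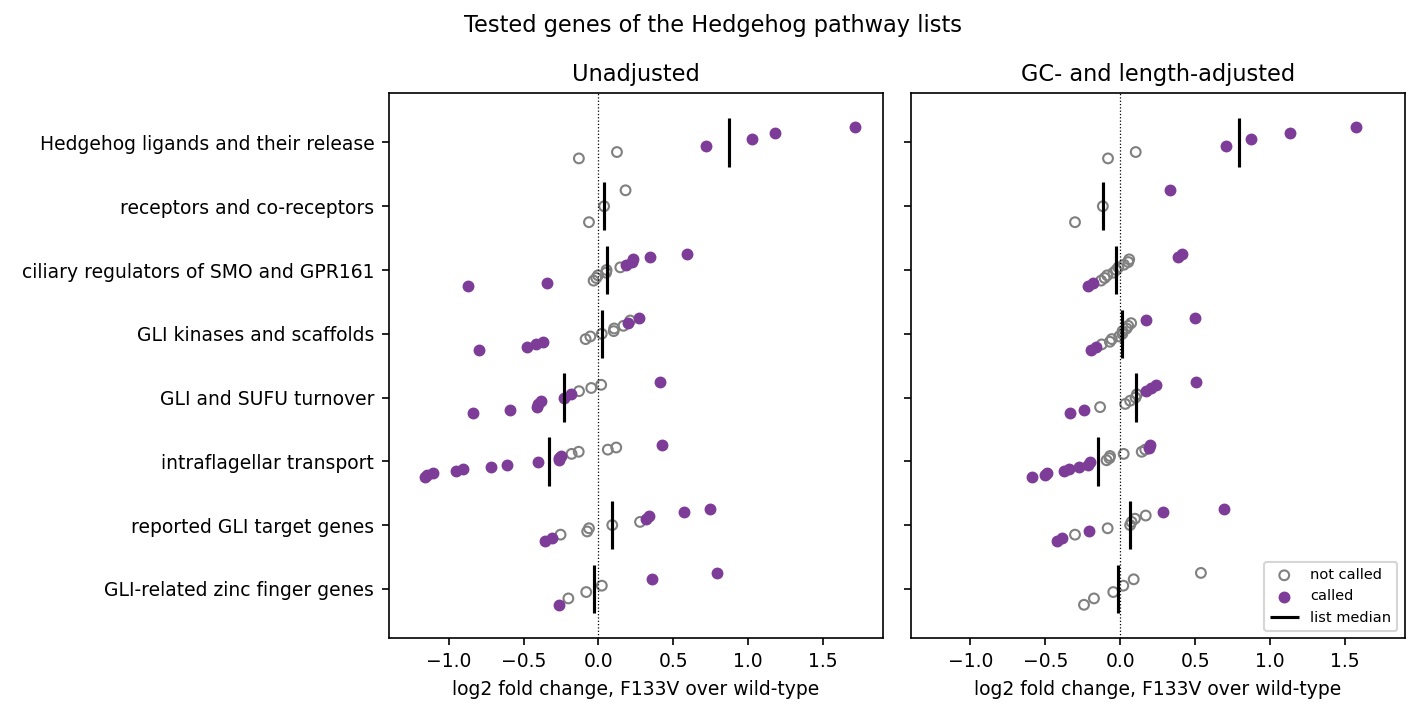
Log2 fold change of F133V over wild-type for the tested genes of each pathway list, unadjusted on the left and adjusted for GC content and length on the right; filled points were called at a BH-adjusted p under 0.05, open points were not, and black lines are list medians. The ligand and release genes have medians of 0.87 and 0.79, and the intraflagellar transport genes of -0.33 and -0.15.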

How the data were processed

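RNA-seq of DU145 cells gave single reads of 75 bases on a NextSeq500, per the labels' protocols. The values the authors deposited are raw read counts by gene, 1 table for each library. TopHat2 2.0.10, HTSeq 0.6.0 and the build hg38 are named in the labels, per the submitters' processing notes. The annotation release, RNA selection and strand setting were not given in the sources used here. Reads over no gene made up 6.12% to 6.53% of each table, ambiguous reads 3.50% to 3.73% and reads with several alignments 13.6% to 16.6%; these stayed out of library sizes. Symbols matched 60444 of 60614 gene IDs, and GENCODE release 29 (GRCh38) gave length and GC content for 58368.

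Counts were tested in R 4.3.3 with edgeR 4.0.16 (filterByExpr, TMM, quasi-likelihood F-test, two-sided, BH over all tested genes, threshold 0.05); SE is the log2 fold change over the square root of F, with 2 residual degrees of freedom and a spread shared across genes. The GC adjustment smoothed each library's log2 deviation on GC content and log2 length of the longest transcript (mgcv 1.9.3, basis dimension 8, genes above 2 in mean log2 CPM, prior count 2), centred on the median, and entered it as an offset. DESeq2 1.42.0 was an alternative. Both fits were run on simulated data, the GC-adjusted one with the same GC trend in both F133V libraries. That setting does not cover F133V replicates that differ from each other along GC content, as they did here. With 2 libraries against 2, an exact permutation test cannot go below p = 0.333, so none was run.

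The members, gene lists and GC adjustment were chosen with earlier results of these data known. Named genes are the members, SPOP, up to 4 called genes of lowest adjusted p per list, genes at or near 0 reads, and the 2 nearest profiles to each member among genes within 1 of its mean log2 CPM. The F133V replicates differed by more than sampling noise (chi-square over degrees of freedom 7.68, genes with 10 or more reads), as did the wild-type replicates (1.64), and no library was counted as a repeat of another. Counting error is what depth limits here: GLI1 and GLI3 rest on 60 to 97 reads per library.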

Additional observations from a re-analysis of the deposited data

How the results depend on the processing

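GLI1 and GLI3 and the SHH and SCUBE genes rest on fewer than 100 reads per library. Upper-quartile scaling moved the median of all genes to 0.13 and gave GLI1 0.50 and PTCH1 0.26, both passing, and turned GLI2 to 0.047 and GLI3 to 0.069; GC-adjusted it turned GLI3 to 0.073, GRK2 to 0.10 and GSK3B to 0.11, gave SUFU 0.20, passing, and called 2400 genes lower, with 37 pathway genes higher and 9 lower. With only genes above 1 CPM in all libraries, GLI1 passed (0.41), 0 ligand and release genes were left to call with or without GC adjustment, since those called were removed, and GC-adjusted GRK2 and GSK3B turned to 0.011 and 0.016. DESeq2 called 2954 genes higher and 1 ligand and release gene higher.

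The GC and length offset gave GLI2 -0.26 and PTCH1 0.23, both passing, and SUFU 0.085, missing, turned GRK2 to -0.013, DYRK2 to 0.043, PRKAR1A to 0.17 and CUL3 to 0.066, and called 17 pathway genes lower. With the replicate block added, those values were -0.26, 0.23, 0.085, -0.012, 0.042, 0.17 and 0.065, with 16 pathway genes lower. With GC content alone, GLI2 was at -0.33, passing, SMO at 0.11 and SUFU at 0.058, missing, PTCH1 at 0.13, missing, GRK2 at -0.035, PRKAR1A at 0.18, CUL3 at 0.039 and DYRK2 at -0.027. GC-adjusted, SMO missed with DESeq2 size factors (0.11) and without a low-count filter (0.12). The cause of these changes was not tested.

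Leaving out 1 library at a time, values ran from 0.22 to 0.53 for GLI1, -0.11 to -0.026 for GLI2, -0.11 to 0.021 for GLI3, 0.089 to 0.21 for PTCH1, 0.34 to 0.39 for SMO and 0.25 to 0.29 for SUFU. Genes called higher ran from 2786 to 5225, lowest without wild-type replicate 2 and 2819 without wild-type replicate 1; pathway genes called higher ran from 10 to 23, with 10 and 12 without those libraries, and ligand and release genes called lower from 0 to 1. GC-adjusted, the ranges were -0.073 to 0.33 for GLI1, -0.11 to 0.017 for GLI3, 0.17 to 0.29 for PTCH1, 0.064 to 0.16 for SMO, -0.024 to 0.11 for CUL3, -0.0074 to 0.17 for GLIS2, -0.052 to 0.084 for DYRK2 and -0.046 to 0.013 for GSK3B. The replicate numbers did not pair the libraries (correlation of deviations -0.03), and with the replicate block alone SMO was at 0.38 and SUFU at 0.28 and no call of the 6 genes changed.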
